A study of Mus musculus with 28 samples.

Results

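Wide stretches of the genome lay within an H3K9me2 domain in each of the 4 sorted domain sets of this series, mESC DMSO, mESC dTAG, 2CLC DMSO and 2CLC dTAG. They were chosen by position alone, as bases of chromosomes 1 to 19 that are inside a domain in all 4 sets, with segments under 1 kb apart joined and runs of at least 500 kb kept. This gave 338 wide constant runs out of 6646 constant runs of any width. Constant means in a domain in every set, and does not show that the level of the mark was kept. The wide runs add up to 344.4 Mb, or 14.0% of chromosomes 1 to 19 and 39.2% of the bases that are in all 4 sets. That they are in a domain in every sorted set, and that they are wide, is therefore the rule and no finding. What follows describes where they lie, which genes and sequence they hold, how far the domains reach beyond them, and how they are covered by a further deposited set whose name gives neither cell state nor treatment, called the unnamed set here.

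H3K9me2 is a mark of repressed chromatin that forms wide blocks in mammalian genomes, often in gene-poor regions with late replication and contact with the nuclear lamina. EHMT2 (G9a) and its partner EHMT1 (GLP) deposit it. Large families of receptor and immune genes that are silent outside their own tissue, such as the olfactory and vomeronasal receptors, commonly lie in such blocks as tandem arrays of related genes.

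The cells were mouse embryonic stem cells (mESCs) derived from the KH2 line (C57BL/6J x 129S1 F1, BL6/129 hybrid in the labels) in which endogenous Ehmt2 carries a degron and mCherry. The sorted sets come from cells that also carry a MERVL-GFP reporter and were kept for 72 h in DMSO, the solvent, or in dTAG-13, which removes the tagged EHMT2 protein. GFP-negative cells were taken as mESCs and GFP-positive cells as 2CLCs (2-cell-like cells), which are few in such cultures and resemble the 2-cell embryo. Each condition had 3 immunoprecipitation and 3 input libraries made by ULI-NChIP, which needs few cells and no crosslinking. The methods state 1 clone. TTNBP, an agonist of retinoic acid receptors, was given to 2 replicates according to the labels, which do not say which, while the methods mention it without that limit. All cells carry the degron, the DMSO ones included. A further 2 immunoprecipitation and 2 input libraries came from unsorted mESCs without the reporter after 24 h in DMSO, and the labels do not tie the unnamed set to any libraries. Each set is a single list of domains for a whole condition, not split by replicate and without signal values, so no spread between cultures and no depth enters the values below, and every comparison is a description without a test.

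Few gene starts in the wide runs have a CpG-rich promoter. To show such starts in letters, with an exception among them, the protein-coding gene start nearest the middle was taken in the first 6 of the widest runs that hold one. Of these 6 genes, 4 were found in the RefSeq promoter table (GRCm38), and Vmn2r47 and Aga were not matched. The 250 bases before each start follow, in lower case with every CG in capitals, read 5′ to 3′ on the strand of the gene. Cdh7 (chr1:109982650-109982899, plus strand) encodes a cadherin, a calcium-dependent adhesion molecule. It is the exception, with a CpG-rich promoter. Its RefSeq start lies 469 bases from the GENCODE start. Gm4565 (chr7:22588128-22588377, minus strand) lies among vomeronasal receptor genes. 4931408C20Rik (chr1:26687461-26687710, minus strand) has the only protein-coding start in a run of 2785 kb, and Scgb2b15 (chr7:32829654-32829903, minus strand) belongs to a secretoglobin cluster.
Cdh7: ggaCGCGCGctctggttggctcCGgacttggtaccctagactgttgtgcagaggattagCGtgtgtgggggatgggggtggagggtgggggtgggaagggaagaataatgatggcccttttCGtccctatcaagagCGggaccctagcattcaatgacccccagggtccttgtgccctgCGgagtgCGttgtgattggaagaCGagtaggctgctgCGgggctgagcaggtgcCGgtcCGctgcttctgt
Gm4565: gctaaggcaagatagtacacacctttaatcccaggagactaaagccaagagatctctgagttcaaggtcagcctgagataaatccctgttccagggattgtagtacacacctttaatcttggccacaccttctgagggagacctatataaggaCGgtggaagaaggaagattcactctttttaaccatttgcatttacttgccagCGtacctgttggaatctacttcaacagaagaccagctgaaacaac
4931408C20Rik: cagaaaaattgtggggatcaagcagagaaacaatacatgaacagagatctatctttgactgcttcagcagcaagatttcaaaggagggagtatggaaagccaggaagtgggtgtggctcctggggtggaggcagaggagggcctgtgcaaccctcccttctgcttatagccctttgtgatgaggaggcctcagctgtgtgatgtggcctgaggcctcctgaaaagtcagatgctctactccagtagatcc
Scgb2b15: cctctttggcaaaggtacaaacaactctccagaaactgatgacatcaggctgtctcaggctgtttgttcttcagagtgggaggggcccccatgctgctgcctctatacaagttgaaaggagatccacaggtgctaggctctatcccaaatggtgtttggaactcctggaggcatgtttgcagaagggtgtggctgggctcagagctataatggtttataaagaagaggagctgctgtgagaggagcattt
The Cdh7 window holds 13 CGs, that of Gm4565 holds 2, and the windows of 4931408C20Rik and Scgb2b15 hold 0. Over all 32817 RefSeq promoter windows of this length, the median was 6 and 92.1% held at least 1. GC content was 60.8% in the Cdh7 window and 44.0%, 51.2% and 49.6% in the other 3.

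The runs were between 505 and 5275 kb wide, with a median of 787.5 kb and quartiles of 626.2 and 1201 kb. Of the 338 runs, 116 reached 1 Mb and 20 reached 2 Mb. Just inside the minimum width were chr18:17394594-17899592, chr4:18139594-18644593 and chr7:85764548-86269547, of 504999, 505000 and 505000 bases. Just outside were chr8:50402943-50902941 and chr6:56926332-57426330, both of 499999 bases, and chr15:15673716-16168715 of 495000 bases. The grid of the domain calls moves in steps of 5 kb with positions rounded to whole bases, so the first 2 of these missed the minimum by a single base. The unnamed set covered 95.2% and 92.8% of them, against 91.1% to 98.1% of the 3 runs just inside. GC content was 35.8% and 38.3% against 36.9% to 37.3%, and the run on chromosome 6 held 15 protein-coding gene starts against at most 4 just inside.

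Every chromosome from 1 to 19 held wide runs, but unevenly. Chromosome 1 had 39 runs and 50.6 Mb, or 25.9% of its length. Chromosome 4 followed with 19.7% and chromosome 3 with 18.3%. Chromosome 11 had the smallest share, 4.76% in 7 runs, and chromosome 19 had the fewest, 5 runs with 6.06% of its length. The widest run of a chromosome ranged from 1010 kb on chromosome 19 to 5275 kb on chromosome 7. Along the chromosomes, with each cut into 3 equal parts, 126 runs had their middle in the part at the centromere side, 120 in the central part and 92 in the distal part. Of the runs, 6 ended within 3 Mb of the distal end, and 14 on 9 chromosomes began within the first 6 Mb, which includes the unsequenced centromere end. These counts were not set against the share of chromosome length in those parts.

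**Figure D1:**
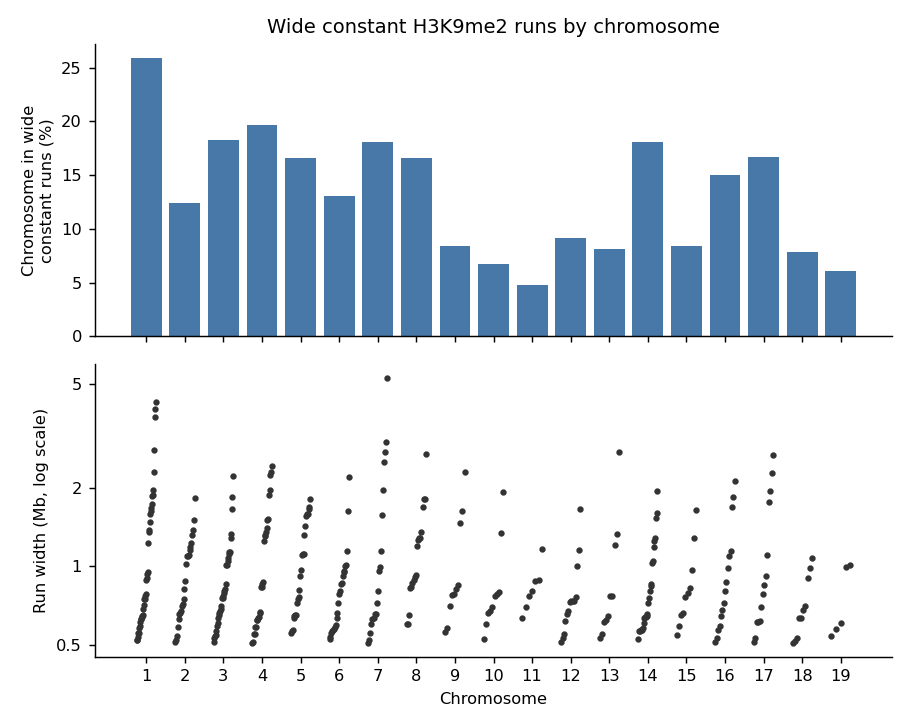
Wide constant runs on chromosomes 1 to 19. The upper panel gives the percent of each chromosome that lies in wide runs, from 4.76% on chromosome 11 to 25.9% on chromosome 1. In the lower panel each point is 1 run, with its width in Mb on a log scale, in order of width within a chromosome. The widest run, 5275 kb, is on chromosome 7.

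Among the 10 widest runs were both gene clusters and runs with few or no gene starts. The widest, chr7:7204653-12479645, held 59 protein-coding gene starts, among them 8 named Zscan4, vomeronasal receptors and Nlrp4b, a member of the NLR family. The nearest genes wholly outside it are the zinc finger gene Zfp418, 21 kb away, and 2900092C05Rik, 33 kb away. The next 3 are on chromosome 1. chr1:107595066-111860060, of 4265 kb, held 2 starts, those of the cadherin genes Cdh7 and Cdh19. chr1:99775077-103785070, of 4010 kb, and chr1:46925147-50645141, of 3720 kb, held none. Gene bodies nonetheless covered 17.7% of the former, into which Cntnap5b, a neurexin-family gene, reaches from its start just outside. The latter lay between Slc39a10, a zinc transporter 32 kb away, and Tmeff2, and 0.0% of it was in a protein-coding gene body.

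The fifth widest run, chr7:21099634-24079629, of 2980 kb, had the most gene starts of any run, 72, of which 45 are vomeronasal receptors. It also holds Nlrp5, a gene of the oocyte, and Nlrp4e. chr1:25835175-28620170 followed with 2785 kb and 1 start, beside the adhesion receptor gene Adgrb3. chr13:86062832-88807828, of 2745 kb, held no start and lay between Cox7c, 16 kb away, and Edil3, 14 kb away. chr7:31384621-34109616, of 2725 kb, held 25 starts with the secretoglobin genes Scgb1b30, Scgb2b24 and Scgb2b26. chr8:50917942-53597937, of 2680 kb, held only Aga, which encodes a lysosomal enzyme. The tenth, chr17:37281965-39951961, of 2670 kb, held 52 starts, including the olfactory receptor genes Olfr111, Olfr115 and Olfr138. 

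Over the whole set, no protein-coding gene started in 187 of the 338 runs, or 55.3%, and the 100 runs with 1 to 9 starts held 218 starts together. The remaining 51 runs with 10 or more held 1265 of the 1483 starts, or 85.3%, on 19.1% of the run length. Runs without a start had a pooled GC content of 37.5% and 3.7% of their bases in protein-coding gene bodies, while runs with 10 or more starts had 39.1% and 20.4%. Soft-masked bases, which mark interspersed and simple repeats, made up 44.8% and 52.7%. A sharper contrast was in repeated sequence. Of all 50-mers, 11.2% occurred again on the same chromosome, on either strand, in runs without a start and 37.5% in runs with 10 or more. These groups were set after the counts had been seen. When pseudogenes, noncoding genes and all other annotated genes were counted, the runs held 5189 starts, and the only run without any was chr3:16224490-16814488.

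Most genes of the wide runs were enclosed by them. Of 1483 genes that start in a run, 1425, or 96.1%, lay wholly inside it, and 58 reached out. They were short, with a median length of 6.32 kb against 19.2 kb for genes that start in no sorted set. The longest that lay wholly inside were Iqcm (536 kb, chromosome 8), the butyrophilin-like genes Skint5 (522 kb) and Skint6 (482 kb) in 1 run on chromosome 4, and Xkr4 (466 kb) and the photoreceptor gene Rp1 (410 kb) in 1 run at the start of chromosome 1. Spock3 (406 kb), the contactin gene Cntn6 (371 kb), the dynein gene Dnah7b (307 kb), the follicle-stimulating hormone receptor gene Fshr (216 kb) and the growth factor gene Pdgfd (210 kb) followed. Their GENCODE promoter windows, from 250 bases before to 50 after the start, held between 1 and 13 CGs, apart from that of Xkr4 with 51. A single run, chr6:80191301-80786299, lay wholly within 1 gene body, that of Lrrtm4, a synaptic adhesion gene.

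A promoter was called CpG-rich when this window had an observed over expected CG ratio of at least 0.6 and a GC content of at least 50%. Of all 20807 protein-coding gene starts on chromosomes 1 to 19, 42.5% were CpG-rich. Of the 1483 in wide runs, 38 were, or 2.56%. The share was 8.18% in constant runs under 500 kb, 33.3% in bases that are in 1 to 3 sorted sets and 53.0% in bases in none. On 15 chromosomes it was lower in wide than in short constant runs and on 3 it was higher. The window of a start in a wide run held a median of 1 CG, against 2 in constant runs under 500 kb and 12 over all starts. The 38 exceptions are not spread evenly. A run on chromosome 14, chr14:4321142-5851139, held 8 of them among 34 starts while 93.8% of its 50-mers were repeated on the chromosome. Nrg3, which encodes a neuregulin, and Epha5, an ephrin receptor gene, had 36 and 30 CGs, and most of the body of both genes lay outside the run.

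The base composition of the wide runs lay at one end of the range. Their GC content was 38.0%, against 39.2% in short constant runs, 41.5% in variable bases, which are in 1 to 3 sorted sets, and 45.3% in bases in no sorted set. It was lower than in short constant runs on 19 of 19 chromosomes. Over the runs, GC content ranged from 35.7% to 43.4% with a median of 37.8%. Soft-masked bases made up 46.8% of the wide runs, 42.0% of short constant runs, 30.1% of variable bases and 25.7% of the rest, and the share was higher in wide than in short constant runs on 19 of 19 chromosomes. Repeated 50-mers followed the same order, with 16.9%, 13.0%, 7.7% and 3.07%. CGs numbered 5.22, 6.12, 7.93 and 11.6 per kb.

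Gene content did not follow a single order. Protein-coding gene bodies covered 9.91% of the wide runs, against 24.1% of short constant runs, 40.9% of variable bases and 59.7% of bases in no sorted set. The share was lower in wide than in short constant runs on 18 of 19 chromosomes. There were 4.33 protein-coding starts per Mb in wide runs and 2.83 in short constant runs, against 6.28 and 15.4 in the other 2 classes. The higher number of starts in wide runs was found on 12 chromosomes and not on 7, and without the 5 runs with most starts it was 3.55 per Mb. Long noncoding RNA genes were at 0.911 per Mb in wide and 1.95 in short constant runs, lower in wide runs on 19 of 19 chromosomes. Pseudogenes went the other way, with 7.01 per Mb in wide runs, 5.3 in short constant runs, 4.74 in variable bases and 3.81 in the rest.

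Width alone does not give the same regions. In mESC DMSO, 689 domains on chromosomes 1 to 19 reached 500 kb, and 284 of them held a wide constant run while 405 held none. Those that held a run had a pooled GC content of 38.1% and 44.5% soft-masked bases, and those that held none had 39.4% and 35.1%. Gene starts were at 4.04 and 1.99 per Mb, and gene bodies covered 14.0% and 28.1%. The domains with a run were also wider, with a median of 1460 kb against 730 kb. At the other extreme, 448 stretches of at least 500 kb that lie in no sorted set had 46.5% GC, 26.1% soft-masked bases and 18.2 gene starts per Mb.

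Gene families were then placed on the runs. Over all protein-coding genes, 7.13% of starts lay in a wide run, and each count in wide runs below stands beside that share. Of the 20807 starts, 1483 lay in wide runs, 1515 in short constant runs, 3856 in variable bases and 13953 in no sorted set. The lists were 21 families or pathways defined by gene symbol, of which 15 had members in wide runs. Together they accounted for 972 of the 1483 starts, or 65.5%. This share depends on which lists were drawn up, and the share of all starts on a list was not computed. A further 272 starts, or 18.3%, belong to genes with a placeholder name (Gm numbers or Rik), against 8.49% of all starts. Members of a family lie in tandem, so the number of runs is given as well.

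Chemosensory receptors made up the largest part. Of 1128 olfactory receptor genes, 543, or 48.1%, started in 19 wide runs, 339 in short constant runs, 187 in variable bases and 59 in no sorted set. The run with most, chr2:88357861-89857858, held 67 among 69 protein-coding starts, beginning with Olfr1178, Olfr1179, Olfr1180 and Olfr1181. It is the last of 3 runs on chromosome 2 that follow each other with single 5 kb bins between them and hold 178 protein-coding starts. The first of them, chr2:86102864-87472861, held 64, which ranks next among all runs. Of 327 vomeronasal receptor genes, which detect pheromones, 215, or 65.7%, started in 15 wide runs and 0 in bases outside all sorted sets. Their run with most was the one at chr7:21099634-24079629 with Vmn1r122, Vmn1r123, Vmn1r124 and Vmn1r125. Of 50 taste and trace amine receptor genes, 24 were in wide runs, and all 24 lay in 1 run, chr6:131516233-133706229, which begins with the bitter taste receptors Tas2r130 and Tas2r107.

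Families with roles in the placenta, the skin and defence followed. Of 54 prolactin, Psg and Ceacam genes, whose products are largely placental, 38, or 70.4%, started in 3 wide runs. The run with most, chr13:27062911-28392908, held 22 of them, including Prl3d1, Prl3d2, Prl3d3 and Prl3c1. Of 64 defensins, which are antimicrobial peptides, 23, or 35.9%, lay in chr8:20882982-21747980 with Defb33, Defa21 and Defa23. Of 56 lectin-like receptors of immune cells, 17, or 30.4%, lay in chr6:129586235-131211232 with Klrd1, Klrk1, Klrc3 and Klrc2. For serpins, which inhibit proteases, the count was 10 of 60, or 16.7%, again in 1 run, chr1:106905067-107590065, with Serpinb12, Serpinb13 and Serpinb3a. Xenobiotic enzymes had 27 of 140, or 19.3%, in 3 runs, with Cyp2c55 and Cyp2c65 among 11 in chr19:38986806-39996803. Keratin and cornified envelope genes had 16 of 148, or 10.8%, all in chr16:88849795-89529793 with Krtap19-1 and Krtap19-2. In 4 of these families more members lay in short than in wide constant runs, with 20 serpins, 59 xenobiotic enzymes, 19 lectin-like receptors and 23 keratin and cornified envelope genes in short ones.

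Gene clusters expressed at zygotic genome activation had the highest share of the lists, 27 of 38 or 71.1%, in 6 runs. The prolactin, Psg and Ceacam list was close to it. By symbol prefix, all 22 Mup and all 22 Defa genes started in wide runs. With short constant runs included, the share of the 2-cell list was 86.8%, against 92.4% for vomeronasal receptors. Wide and short constant runs hold 1483 and 1515 of all 20807 protein-coding starts. The 8 genes named Zscan4 lay in the widest run, and 7 Obox genes, which encode homeobox proteins, lay in the run at chr7:13349645-15859640. The other 12 were 5 Tdpoz genes on chromosome 3, Pramel6 and Pramel7 on chromosome 2, Pramef6, Pramef17 and Pramef25 on chromosome 4, and Usp17lc and Usp17ld on chromosome 7. These families are known for transcription in 2-cell embryos and 2CLCs. Of all 50-mers, 61.3% occurred again on the same chromosome in the Zscan4 run, 41.6% in the Obox run and 58.1% in the Tdpoz run. The median over all wide runs was 11.0%. Domain positions within such copies are uncertain, and they do not show the level of the mark or of transcripts.

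The other lists had few members in wide runs. Long neuronal adhesion and guidance genes had 7 of 63, or 11.1%, each in a run of its own, among them Cntn4, Cntn6, Lrrtm4 and Slitrk1, a share like that of the keratin list and above the background of 7.13%. The next 4 lists were below it. Most of these counts are small, and no difference from 7.13% was tested. Cadherins and protocadherins had 5 of 90, or 5.56%: Cdh7, Cdh19, Cdh18, Pcdh7 and Pcdh20. Numbered zinc finger genes, matched on Zfp symbols, had 16 of 385, or 4.16%, in 8 runs. Genes with placeholder names are not on this list. Its run with most, chr2:174947745-176767742, held 6 of them among 26 protein-coding starts. Neurotransmitter receptor subunits had 2 of 69, Grm3 and Gabrg1, and potassium and sodium channels 2 of 106, Kcne4 and Kcnv1. No start in a wide run came from 39 Hox genes, 108 developmental transcription factors, 75 cytosolic ribosomal protein genes, 75 histone genes, 23 genes of H3K9 methylation or 15 pluripotency genes. Of these 6 lists, 2 ribosomal protein genes and 1 gene of H3K9 methylation lay in short constant runs.

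**Figure D2:**
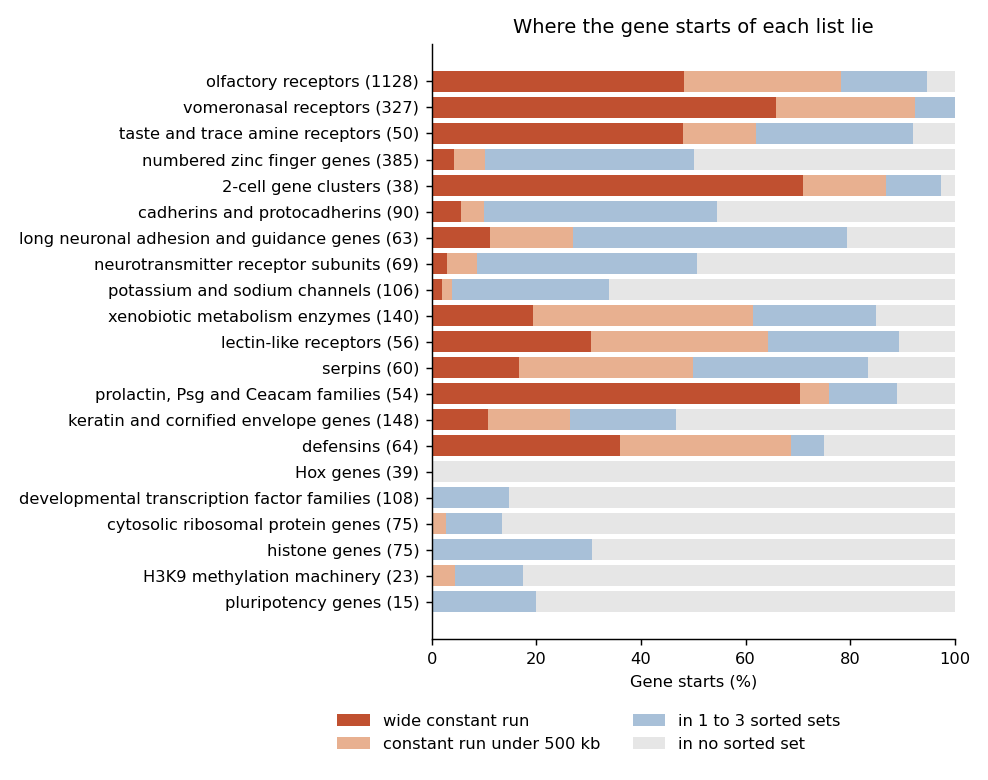
Placement of gene starts for 21 lists, with the number of genes in parentheses. Each bar divides the starts of a list, in percent, between wide constant runs, constant runs under 500 kb, bases in 1 to 3 sorted sets and bases in no sorted set. The wide-run part reaches 71.1% for the 2-cell gene clusters and 65.7% for vomeronasal receptors, and is 0 for the 6 lists at the bottom, against 7.13% for all protein-coding genes.

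The 4 sorted sets differ in how far their domains reach beyond the runs. The domain that encloses a run was widest in 2CLC DMSO, with a median of 1900 kb over runs, and narrowest in 2CLC dTAG, with 1202 kb. A domain that encloses several runs counts for each of them. For mESCs the medians were close, 1597 kb with DMSO and 1575 kb with dTAG. The median ratio of domain to run was 2.03 and 1.14 in these 2 sets of 2CLCs, and 1.65 and 1.5 in mESCs with DMSO and dTAG. In 2CLC dTAG, 73 runs were a whole domain, against 10 in 2CLC DMSO, 35 in mESC DMSO and 34 in mESC dTAG. Each end of a run is set by at least 1 set in which the domain stops there. Of the 676 ends, 2CLC dTAG stopped at 290, or 42.9%, and was the only set to do so at 233. 2CLC DMSO stopped at 126, or 18.6%, and mESC DMSO and mESC dTAG at 186 and 200. No run had both ends at the same base in all 4 sets. The domains differ in width between sets over the whole genome, and the lists are not split by replicate, so these differences could not be judged against the spread between cultures.

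Several runs often shared a domain. The 338 runs lay in 298 domains of 2CLC dTAG, 284 of mESC DMSO, 271 of mESC dTAG and 259 of 2CLC DMSO. These were 3.6%, 7.34%, 4.0% and 6.69% of the 8281, 3870, 6770 and 3870 domains of these sets on chromosomes 1 to 19. Of domains of at least 500 kb, they were 72.2% of 413 and 63.6% of 426 in the dTAG sets of 2CLCs and mESCs. In the DMSO sets they were 45.5% of 569 in 2CLCs and 41.2% of 689 in mESCs. By the rule every run lies in a domain of at least 500 kb, so these shares depend on the number of such domains. A single domain held at most 4 runs in each set apart from 2CLC DMSO, in which the widest domain, of 11475 kb on chromosome 1, held 7, from the serpin run to one beyond Cntnap5a. The bases of the runs made up from 26.7% (mESC DMSO) to 31.3% (mESC dTAG) of a set.

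**Figure D3:**
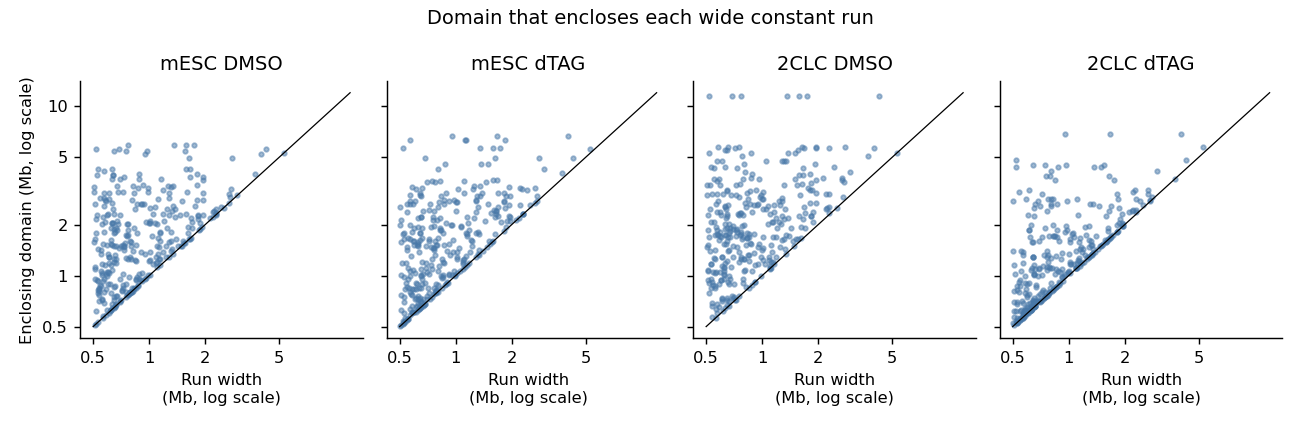
Width of the domain that encloses each of the 338 wide constant runs in each sorted set, against the width of the run, both in Mb on log scales. Each point is 1 run, runs that share a domain are separate points, and on the line the domain is as wide as the run. Points lie closest to the line in 2CLC dTAG, where 73 runs equal a domain, and farthest in 2CLC DMSO, where the median domain is 2.03 times as wide as its run.

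Many runs end at a narrow break. At 334 of the 676 ends, or 49.4%, the next constant run began a single 5 kb bin away. When segments up to 10 kb apart were joined, there were 431 runs of at least 500 kb with 559 Mb in place of 338 with 344.4 Mb. Gene starts were denser at the run ends than farther in or out. A bin between a pair of wide runs counts for both. In the first 5 kb outside the runs there were 41 starts, or 12.2 per Mb, and in the first 5 kb inside 28, or 8.33 per Mb, against 4.16 per Mb at 200 to 250 kb inside and 5.88 at 200 to 250 kb outside. Soft-masked bases fell from 46.9% at 200 to 250 kb inside to 36.1% in the last bin inside and 31.2% in the first outside, and returned to 40.7% at 200 to 250 kb outside. GC content differed little, with 38.1% and 38.2% in the bins on both sides of the end. In the first bin outside, the base share in a domain was 57.2% in 2CLC dTAG, 70.3% in mESC dTAG, 72.6% in mESC DMSO and 81.5% in 2CLC DMSO. The domain call places an end where the signal falls under a low percentile, so the ends are chosen by that signal and the bins beyond them often belong to the next run.

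**Figure D4:**
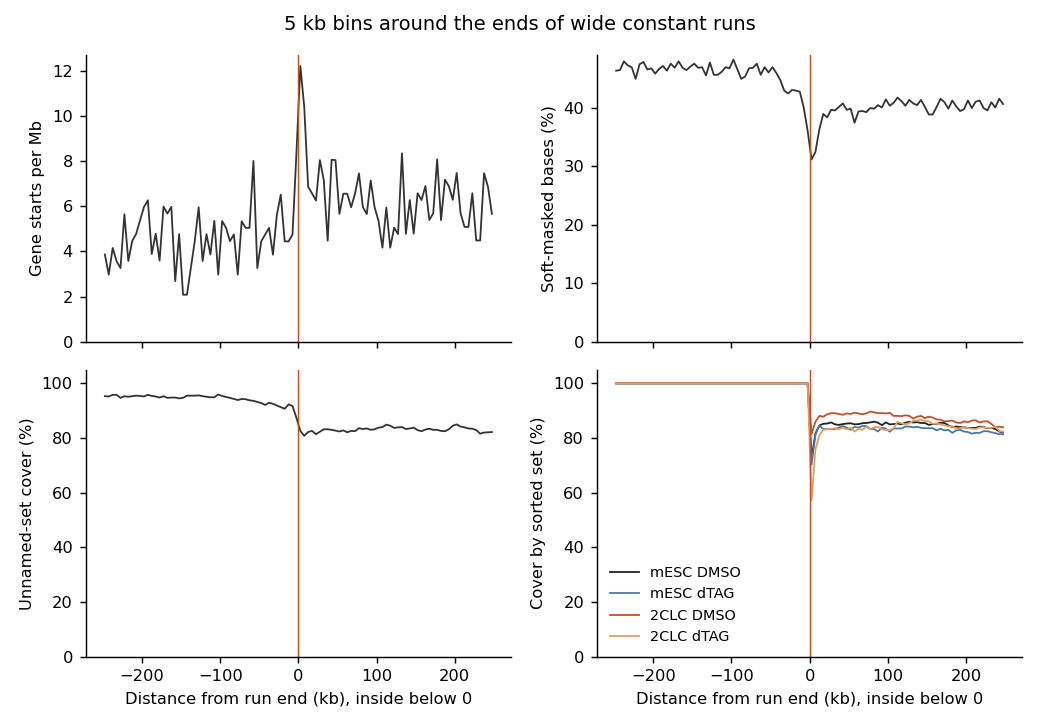
Mean values in 5 kb bins from 250 kb inside (below 0) to 250 kb outside the 676 ends of the wide constant runs. Panels give protein-coding gene starts per Mb, soft-masked bases, cover by the unnamed set and cover by each sorted set, the last 3 in percent. Gene starts peak at 12.2 per Mb and soft-masked bases dip to 31.2% in the first bin outside, and cover by each sorted set is 100% inside by the rule.

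The unnamed set was not used to choose the runs and is on another grid. It covered 93.3% of their bases, close to the 94.5% in short constant runs, and above the 81.1% in variable bases and 24.0% in bases in no sorted set. Over all of chromosomes 1 to 19 it covered 63.3%. Cover was lower in wide than in short constant runs on 13 chromosomes and higher on 6. The median run was covered over 98.0% of its length, and 287 of 338 runs, or 84.9%, over at least 90%. In 54 runs the cover was complete, each within a single unnamed domain. The median run met 3 unnamed domains, and the one with most, chr1:107595066-111860060 with Cdh7 and Cdh19, met 14 and was covered over 96.2%. Towards the run ends the cover declined from 95.3% at 200 to 250 kb inside to 87.4% in the last bin, and was 83.1% at 200 to 250 kb outside.

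A few runs stood apart. chr2:174947745-176767742, of 1820 kb, was covered over 0.0%, although it was enclosed by domains of 2260 and 1825 kb in mESCs (DMSO and dTAG) and of 2240 and 3010 kb in 2CLCs. The nearest unnamed domains lay 99 and 396 kb away. It held 26 protein-coding gene starts, among them Zfp968, Zfp965, Zfp969 and Zfp966 of a zinc finger cluster, and 93.9% of its 50-mers were repeated on the chromosome. Unsequenced bases (N) made up 19.2% of it. The vomeronasal run at chr7:21099634-24079629 was covered over 26.6%, with 75.9% repeated 50-mers. Next were chr10:101324867-101994865 with the glycosyltransferase gene Mgat4c at 44.8%, chr3:15244491-16044489 with Sirpb1a, Sirpb1b and Sirpb1c, which encode signal-regulatory proteins, at 48.1%, and chr14:108301003-108941001 with Slitrk1 at 56.2%. Repeated 50-mers made up 7.41%, 33.8% and 4.91% of these 3, and N 18.8% of the Sirpb1 run. Of all 338 runs, 22 held N bases, 0.54% of the run bases in total, and in 7 runs N made up over 10%. Cover differed among these 7. The 3 with the most N, 19.9% to 24.5%, were each covered over at least 90%, and so was chr2:177207742-177922740 with 14.0%. The other 3 were the zinc finger run at 0.0%, the Sirpb1 run at 48.1% and chr4:59934539-62224535, with 17.5% N, at 73.1%.

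Repeated sequence moved with the cover in part. In the 18 runs in which over 50% of 50-mers were repeated, the pooled cover was 74.6%, against 94.9% in the other 320. Their median cover was nonetheless 98.3%, and 11 of the 18 were covered over at least 90%. The run at chr14:4321142-5851139, with 93.8% repeated 50-mers, was covered over 100.0%, and so was chr2:177207742-177922740, a neighbour of the uncovered zinc finger run with 74.7% repeated 50-mers. Without the 2 least covered runs, the pooled cover of all others was 94.4%. By gene content, cover was 94.9% in runs without a start, 95.2% in runs with 1 to 9 and 85.9% in runs with 10 or more. Reads that match several places were set to 1 of them by the aligner, so the position of a domain within near-identical copies is uncertain. The part of repeated sequence and of assembly gaps in the difference between sets was not tested.

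**Figure D5:**
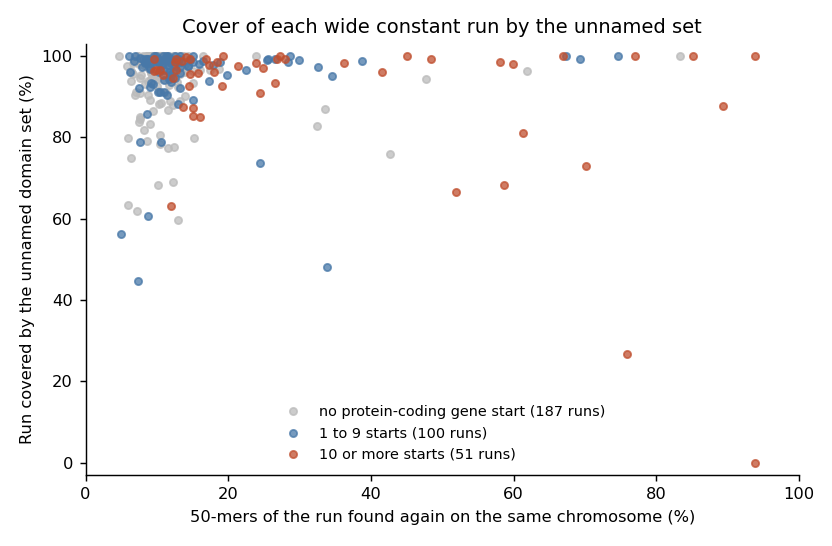
Cover of each wide constant run by the unnamed set, in percent of the run, against the percent of its 50-mers that occur again on the same chromosome. Each point is 1 of 338 runs, coloured by its number of protein-coding gene starts. Most points lie at the top left, the 18 runs beyond 50% repeated 50-mers range from 0.0% to 100.0% cover, and the 2 lowest points are the zinc finger run on chromosome 2 and the vomeronasal run on chromosome 7.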

How the data were processed

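H3K9me2 domains were analysed from 5 sets that the authors deposited as positions, with a score of 0 throughout. Per the labels and methods, reads were aligned to mm10 with STAR 2.7.10 in a mode that sets reads with several matches to 1 place. Duplicates (Picard 2.26.0) and high-signal regions were removed, and coverage (deepTools 3.5.1) was averaged in 10 kb windows on a 5 kb grid. Domains began where log2(ChIP/input) exceeded the 80th percentile and were extended until it fell below the 30th. Both limits are percentiles, so a domain marks signal that is high relative to other bins, not a fixed level. The paper reports that EHMT2 depletion lowered global H3K9me2 in both cell types. The domains on chromosomes 1 to 19 nonetheless added up to 1290 and 1099 Mb in mESCs (DMSO and dTAG), and 1224 and 1150 Mb in 2CLCs. Whether replicates were pooled was not stated. Only these positions were analysed here, so no depth or signal enters the results.

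Constant runs, GENCODE M21 gene starts, base content (GRCm38.p6, soft-masked), repeated 50-mers and cover by the unnamed set were computed base by base with Python 3.11.15, numpy 2.4.6 and pandas 2.3.3. Code was tested on simulated data. Region members, gene lists and alternatives were chosen with earlier results of these data known. Named were the 10 widest runs with up to 3 longest genes each, 3 runs on each side of the minimum, the 5 least covered, the 3 with most gene starts, the 10 longest enclosed genes and, per list, the run with most members. Genes or runs named besides these were chosen after their values were seen. Chromosome X was outside the rule.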

Additional observations from a re-analysis of the deposited data

Results flagged for a closer look

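Chromosome X was outside the rule that chose the runs, and the same steps found wide constant runs there. It held 39 runs with 58.6 Mb, or 34.3% of its length, above the 25.9% of chromosome 1. The unnamed set covered 68.2% of these bases, with a median of 80.5% per run. The widest, chrX:23811317-35771300, measured 11960 kb, held 49 protein-coding gene starts, had 85.2% repeated 50-mers and was covered over 20.7%. Chromosome X was left out of the scaling of coverage by the authors, and the part of this in the values was not tested. There are no control samples for domain positions.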

How the results depend on the processing

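No paired analysis was possible because each domain set is a single list for a whole condition and no result comes from a test. The number of wide runs depended on the minimum width, with 623 at 300 kb and 116 at 1000 kb. The total length was 192 Mb at a minimum of 1000 kb, 559 Mb with segments up to 10 kb apart joined and 636 Mb for bases in at least 3 of the 4 sorted sets. Gene starts numbered 15.1 per Mb when all annotated genes were counted. These 6 of 176 alternative values moved by more than 1.5 times, or, for values other than counts and lengths, by more than 1 SD over the 19 chromosomes. A further 4 changed by over 1.5 times within that SD. The SD was 11.5 percentage points for the CpG-rich share, 6.41 for the gene body share and 4.33 starts per Mb. Smaller changes in these 3 values could therefore not count as moved. The CpG-rich share rose from 2.56% to 4.42% with segments up to 10 kb apart joined and 5.33% for bases in at least 3 sets, and the gene body share from 9.91% to 16.2% for bases in at least 3 sets and 15.9% with all annotated genes. Leaving out each chromosome in turn gave between 299 and 333 runs, 92.8% to 94.2% cover by the unnamed set and 3.62 to 4.89 gene starts per Mb. A minimum 10 bases lower, added after the widths had been seen, gave 340 runs. Domain lists without signal or replicates limit all of these values to positions.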
